A study of Mus musculus with 6 samples.

Results

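Distal forelimb buds that had lost the Polycomb enzymes RING1A and RING1B were set against distal forelimb buds of embryos exposed to retinoic acid (RA). The comparison uses 2 of the 6 Affymetrix arrays of the series: the distal array of the double knockout (dKO) and the distal array of the RA condition. Both were chosen by their labels, and neither is a control. All embryos were CD1 mice at E10.5, an early stage of limb outgrowth, and each bud had been cut into a proximal and a distal part. The dKO carried Prx1-Cre, Ring1A-/- and Ring1Bfl/fl and received no RA. The RA embryos were wild type, and their mothers were given all-trans RA at 100 mg/kg by gavage at E10.25. The 2 conditions therefore differ in Ring1A, in Ring1B, in the Cre transgene and in RA at once, and these cannot be told apart. Prx1-Cre acts in limb mesenchyme and leaves the ectoderm of the bud largely unrecombined. The labels do not say how many embryos were pooled, nor whether the distal and proximal parts came from the same embryos. The proximal dKO and proximal RA arrays give the same comparison in other tissue. The distal and proximal control arrays, labelled Ring1A-/- by genotype and wild type in the description, are quoted as levels only.

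RING1A and RING1B are the ubiquitin ligases of Polycomb repressive complex 1, which marks histone H2A and keeps developmental regulators silent in cells that should not use them. RA diffuses into the limb from the trunk, binds nuclear receptors on DNA and switches on genes that include its own degrading enzymes. The distal limb is normally kept low in RA by the enzyme CYP26B1. MEIS factors mark the proximal limb, and the apical ectodermal ridge at the tip of the bud secretes FGFs that sustain the distal mesenchyme.

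The values are MAS5 signals on a linear scale, with 1 array per group, so no difference has a replicate check or a p-value, and the number of arrays limits the precision. Signals below the median of their array (76.1 in distal dKO, 68.2 in distal RA) were set to that median, the floor. A difference that ends at a floored array is a bound, written as "at least" when positive. All differences are log2 of dKO minus RA, so 1 is 2-fold and a positive value is higher in dKO. The median difference of all genes was 0.06. The RA arrays came from embryos with another sex-linked profile: Xist, the RNA of the inactive X, had 3299 in distal dKO and 29.5 in distal RA, and the Y-linked gene Eif2s3y had 4.25 and 3064. The list of sex-linked genes had 4 members on the array, Xist and the Y-linked Eif2s3y, Kdm5d and Uty. Of these 4, 1 was higher and 3 were lower in distal dKO. The 5' probe set of the BioB spike-in read 904 and 939 in the dKO arrays, against 102 and 111 in the RA arrays. The distal arrays correlated at r = 0.958 across 12176 genes, and the proximal RA array correlated with the other 5 at only 0.927 to 0.951. The dKO is set against RA in the proximal arrays with that reservation. The sex of the embryos and the spike-in move with the condition in both parts, and their part in the differences was not tested. All 12 limb mesenchyme markers, among them Prrx1 (5539.8 in dKO and 5927 in RA) and Tbx5 (948 and 1094), were above the floor in both distal arrays. None of these 12 differed 2-fold between them.

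Far more genes were higher in the distal dKO array than in the distal RA array. Of 11648 genes above the floor on at least 1 of the 2 arrays, 854 (7.33%) were 2-fold or more higher in dKO and 180 (1.55%) were lower. This excess depends in part on scaling: after each array was divided by its median, which moved the median difference to -0.10, 648 genes were higher and 260 lower. Among the 10611 genes above both floors, 572 (5.39%) were higher and 144 (1.36%) lower. In the proximal pair 1221 of 11804 genes (10.34%) were higher in dKO and 322 (2.73%) lower, with a split of 803 and 679 once arrays were divided by their medians and of 925 and 430 under quantile normalization. Of the distal genes that could also be read proximally, 490 of 846 higher genes (57.9%) and 71 of 172 lower genes (41.3%) were 2-fold the same way there. Genes higher in both parts made up 4.3% and genes lower in both 0.624% of the 11387 genes read in both, and they were 40.4% of 1213 and 22.8% of 311 proximal calls. Across these genes the distal and proximal differences correlated at r = 0.59 (Spearman's rho 0.48), a description over genes that share their arrays. Of the distal calls 282 higher and 36 lower ones were bounds.

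**Figure D1:**
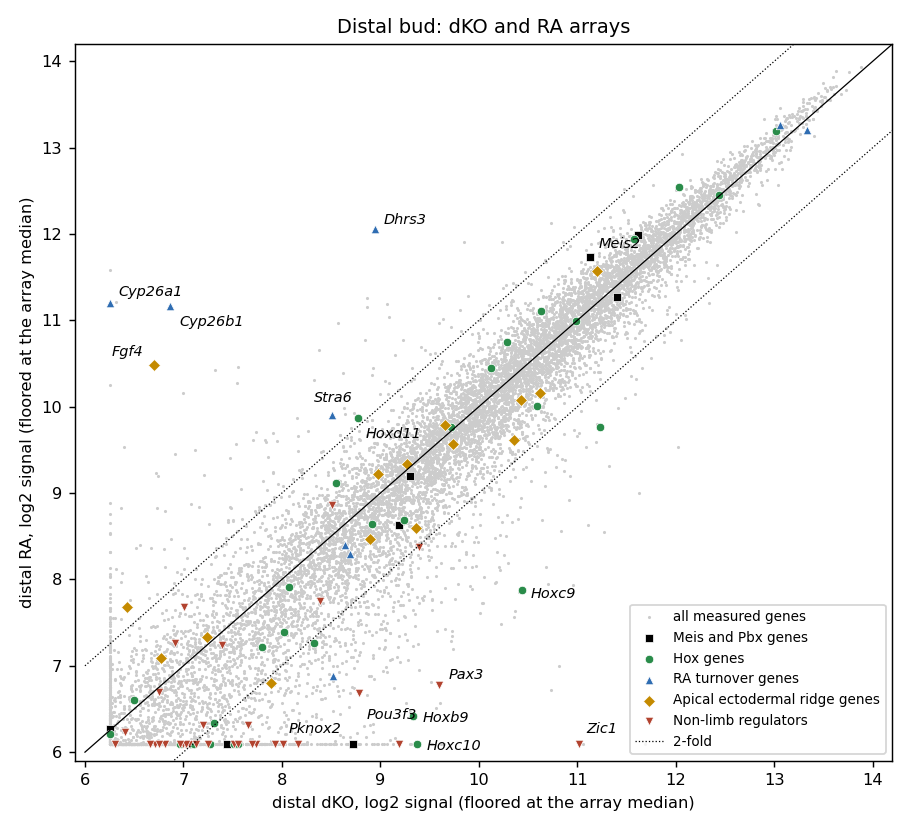
Log2 signal of each measured gene in the distal dKO array (x axis) and the distal RA array (y axis), floored at the array medians, with 5 gene groups in colour. Solid line, equal signal; dotted lines, 2-fold. Cyp26a1, Cyp26b1, Dhrs3 and Fgf4 lie far above the diagonal (higher in RA), and Zic1, Hoxc10, Hoxb9 and Pou3f3 far below it (higher in dKO).

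Genes for the breakdown and storage of RA were among the furthest apart, all of them lower in dKO than in RA where 2-fold apart except Rbp4. Of 17 genes of RA turnover, 15 were on the array and 9 were measured in the distal pair. In dKO 4 were 2-fold or more lower (1.55% of all genes were) and 1 was higher, with a median of -0.21. All 4 were also lower in dKO proximally, and the 1 higher gene was higher there too. Cyp26a1, an enzyme that oxidizes RA, had 58.9 in distal dKO and 2358 in distal RA, and 73.3 and 1256 in the proximal dKO and RA arrays. It was thus below the floor in distal dKO and far above it in both RA arrays (log2 -4.95, a bound; proximal -4.10). Control buds read 64.8 distally and 29.3 proximally. Cyp26b1, the CYP26 enzyme of the normal distal bud, had 117 in distal dKO, 2301 in distal RA and 780.3 in distal control. The dKO therefore lay below the control level and RA above it, at a difference of -4.30 (proximal signals 79.3 in dKO, 3323 in RA, difference -5.39). Dhrs3, which reduces retinaldehyde back to retinol, had 492 in dKO and 4261 in RA distally, and 584 and 5251 proximally. Its difference was -3.12 in the distal and -3.17 in the proximal pair, with control at 586 and 738. Stra6, the cell-surface receptor that takes up retinol, had 365 in distal dKO and 959 in distal RA (-1.39; proximal -1.16).

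Among genes lower in dKO than in RA, 2 had a promoter with the letters of the classical RA response element, the direct repeat that the RAR and RXR receptor pair can bind. They were Cyp26a1 and Rarb, and their promoters are shown because both genes were also lower in dKO proximally. Windows of 300 bases (250 before to 50 after the RefSeq start, build GRCm38.p6) were searched on both strands for any pair of the hexamers AGGTCA or AGTTCA or GGGTCA or GGTTCA in direct repeat with 5 bases between them. The capitals below mark the repeat, and each promoter is printed on the strand of its gene. Cyp26a1 lies at chr19:37697558-37697857 on the plus strand, and its repeat is at bases -32 to -16 from the start, reading as the reverse complement. Rarb, which encodes an RA receptor, has its window at chr14:16575427-16575726 on the minus strand, with the repeat at -53 to -37.
Cyp26a1: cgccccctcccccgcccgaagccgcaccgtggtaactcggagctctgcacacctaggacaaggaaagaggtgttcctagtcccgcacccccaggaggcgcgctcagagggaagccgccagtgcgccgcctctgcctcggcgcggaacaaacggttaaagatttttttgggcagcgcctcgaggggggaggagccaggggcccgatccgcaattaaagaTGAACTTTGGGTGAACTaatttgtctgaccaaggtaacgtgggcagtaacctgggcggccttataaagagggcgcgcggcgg
Rarb: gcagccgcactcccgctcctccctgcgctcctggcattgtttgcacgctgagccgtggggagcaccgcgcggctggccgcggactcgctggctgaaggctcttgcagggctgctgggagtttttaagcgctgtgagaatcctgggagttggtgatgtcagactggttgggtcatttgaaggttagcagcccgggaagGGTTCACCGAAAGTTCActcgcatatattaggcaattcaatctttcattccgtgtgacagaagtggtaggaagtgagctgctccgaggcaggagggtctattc
A repeat of this kind occurred in 31 of the 27025 genes with a promoter in the table (0.115%). Among the 9438 measured genes with a promoter it occurred in 6 (0.0636%), in 2 of the 132 lower in dKO (1.52%) and in 1 of the 649 higher in dKO (Ppbp). With 2 bases between the hexamers the repeat was in 2 higher genes, Ano1 and Slc45a3, and in 0 lower ones. Ppbp, Ano1 and Slc45a3 were named after their values were seen. No match was found in the windows of Cyp26b1 and Dhrs3, which says only that these letters are not in those windows. The matches were counted with the differences already known, and they are a description of the letters, not of binding.

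Several genes that receive or respond to RA were also lower in dKO. Of 15 receptor and response genes 10 were measured distally, 4 of them lower in dKO and 1 higher, where 1.55% of all genes were lower and 7.33% higher. Rarb had 379.8 in distal dKO and 2000.2 in distal RA, and 647 and 2814 proximally. Its difference was -2.40 in the distal pair and -2.12 in the proximal pair. In distal control it read 117, so the dKO lay between control and RA. Nrip1, a nuclear receptor corepressor induced by RA, had 952 in dKO and 2489 in RA distally (-1.39; proximal -1.06). Cdx1, a homeobox gene of the posterior axis, differed by -1.24 distally and 0.50 proximally, so it was lower in dKO in the distal pair alone. Dleu7, an RA response gene of the list, had 9.03 in dKO and 221 in RA distally (-1.53, a bound). Its proximal difference was -0.14, also a bound. Nr2f1, which encodes the orphan receptor COUP-TFI, was the 1 gene higher in dKO, with 1933 in distal dKO, 486 in distal RA and 388 in distal control. Its difference was 1.99, against 0.86 proximally. Its relative Nr2f2 had 1422 in dKO and 2358 in RA (-0.73), under 2-fold. Rarg, the RA receptor of skeletal precursors, had 966 and 822 distally, and Rxra 2006 and 1866. Proximally Rarg was 2-fold lower in dKO, at 760 against 1996 in RA (-1.39).

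Among genes that make or carry RA, Rbp4 was higher in dKO and the others given here were under 2-fold apart or below both floors distally. Rbp4, the carrier of retinol in blood, had 367 in distal dKO and 118 in distal RA, with 101 in distal control (1.64; proximal 1.84), and it was under 2-fold with a floor of 200 (0.88). The RA-synthesizing enzyme Aldh1a2 was below the floor in both distal arrays (62.8 in dKO and 2.28 in RA). In the proximal arrays it was above the floor in dKO alone, at 256 against 7.38 in RA (at least 2.02). Aldh1a1, Aldh1a3, Lrat, Rdh5 and Adh7 were likewise below both distal floors. Rdh10, which makes retinaldehyde, had 413 in dKO and 315 in RA (0.39). The cytoplasmic RA binding proteins Crabp1 (0.12) and Crabp2 (-0.21) and the dehydrogenase Rdh11 (0.25) also stayed under 2-fold.

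**Figure D2:**
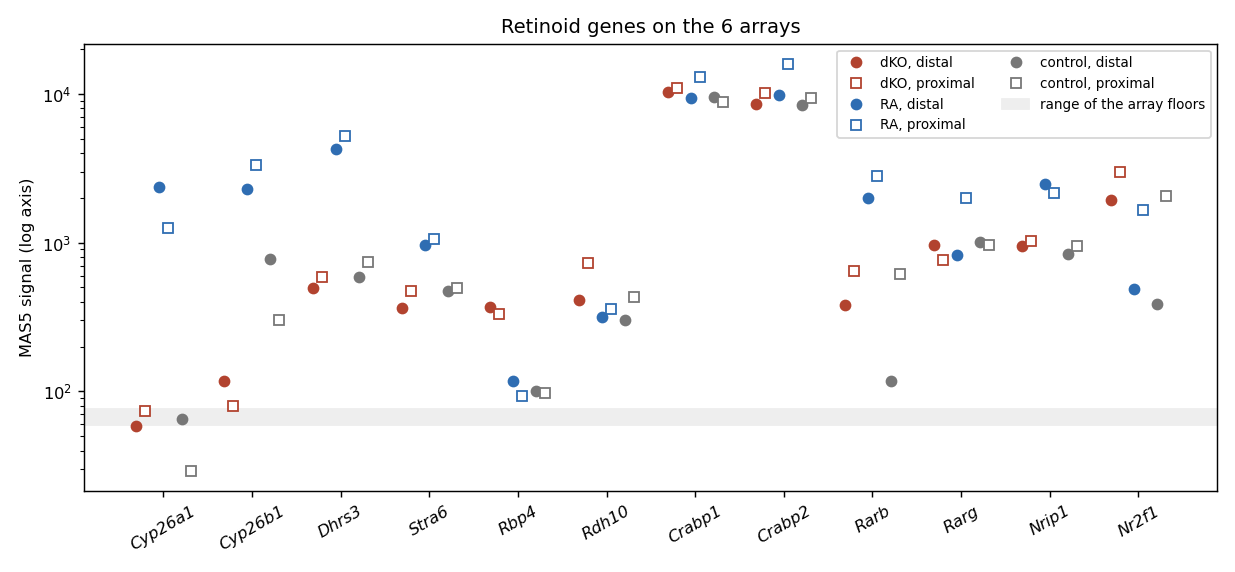
MAS5 signal (log axis) of 12 retinoid genes on the 6 arrays, 1 point per array; circles are distal and squares proximal, in the order dKO, RA and control. Cyp26a1, Dhrs3, Stra6, Rarb and Nrip1 were highest in the RA arrays, and Rbp4 in the dKO arrays.

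Meis2, the homeobox gene named in the study's title, was above the distal control level in both conditions and under 2-fold apart between them. It had 2235 in distal dKO, 3411 in distal RA and 1094 in distal control, a difference of -0.61 between the first 2. The proximal signals were 3456 in dKO and 4890.1 in RA (-0.50). The other probe sets of Meis2 gave -1.46, -0.21 and -0.01 in the distal pair, so the size of the difference depended on the probe set. Meis1 had 582 in distal dKO and 397 in distal RA, against 202 in distal control. Its probe sets gave 0.55 and -0.32, which differ in sign. By the probe set used, both conditions were above the distal control array for Meis1 too.

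Other TALE homeobox genes did separate the conditions. Of 9 Meis and Pbx genes 8 were measured, of which 2 were higher in dKO (7.33% of all genes were) and 0 lower, with a median of 0.12. Both of them were below the floor in RA and so could only be higher. Meis3 had 174 in distal dKO and 13.4 in distal RA, a difference of at least 1.35. Proximally it had 309 in dKO and 256 in RA (0.27). Pknox2, which encodes a MEIS-related factor also called PREP2, had 424 in distal dKO, 66.9 in distal RA and 210.0 in distal control (at least 2.64). It was separated in the proximal pair as well, at 578 in dKO and 76.2 in RA (2.92). The partners Pbx2 (-0.37), Pbx3 (0.13) and Pknox1 (0.10) were under 2-fold apart.

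Genes that lie proximally or anteriorly in a normal bud were higher in the distal dKO than in the distal RA bud in several cases. Proximal limb genes were higher in 4 of 9 and lower in 0 (median 0.90), where 7.33% of all genes were higher and 1.55% lower. Of the 7 above both floors 2 were higher, where 5.39% of all such genes were. Anterior limb genes were higher in 4 of 5 and lower in 0 (median 1.58), beside the same 7.33% and 1.55%. However, only 2 were above both floors and the other 3 could only be higher. Irx3 and Irx5 are on both lists. Irx3, an Iroquois homeobox gene, had 1367 in distal dKO, 458 in distal RA and 160.4 in distal control (1.58). Proximally it differed by 0.39, with 2369.6 in dKO and 1804 in RA. Irx5 had 143 in distal dKO and 35.4 in distal RA (at least 1.07; proximal 0.50). Alx1, a homeobox gene of anterior mesenchyme, had 1194 and 179 in the same arrays (2.74), and 1575 and 1232 proximally (0.35). Irx3, Irx5 and Alx1 thus came apart in the distal pair by more than 2-fold and in the proximal pair by less. A second Alx1 probe set was under 2-fold distally.

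Pax9 and Tbx18 were apart in both parts. Pax9 had 280.0 in dKO and 54.9 in RA distally (at least 2.04; proximal at least 2.11), and Tbx18 976 and 283 (1.79; proximal 1.54). Shox2, needed for growth of the upper limb segment, pointed the other way, with 1943 in distal dKO and 3729.6 in distal RA (-0.94). The proximal difference was -1.16. Pax1 was above the floor distally in dKO alone, at 113 against 2.59 (at least 0.72). In the proximal arrays it had 271 in dKO and 1280.2 in RA (-2.24).

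Hox genes give a cell its position along the body and limb axes, and their clusters separated the conditions unevenly. Of 39 Hox genes 33 were on the array and 31 were measured distally, of which 9 were higher in dKO and 1 lower (median 0.56), where 7.33% of all genes were higher and 1.55% lower. Of the 23 above both floors, 4 were higher and 1 lower (median -0.0045), where 5.39% and 1.36% of all such genes were. In HoxC 5 of 7 were higher and 0 lower (median 1.17), in HoxB 3 of 8 and 0 (0.51), in HoxD 1 of 8 and 1 (-0.09) and in HoxA 0 of 8 either way (0.13). Above both floors HoxC had 2 of 4 higher and HoxB 2 of 6. Hoxc6, among the higher HoxC genes, was just past 2-fold as a bound (at least 1.01). Its other probe sets gave at least 0.83 and -0.39. It was under 2-fold with arrays divided by their medians (0.85), quantile normalization (0.90) and the mean over probe sets (0.48).

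Most of the higher genes were posterior members of HoxB and HoxC, which are normally used in the trunk, tail and hindlimb. Hoxb9 had 646 in distal dKO, 85.4 in distal RA and 97.4 in distal control. The proximal signals were 644 in dKO and 95.6 in RA, so both dKO arrays stood apart from both RA arrays (2.92 distally, 2.75 proximally). Hoxc9 had 1387 in distal dKO and 234 in distal RA (2.57; proximal 2.73), and Hoxc8 2403 and 873 (1.46; proximal 2.12). Hoxc10, a gene of the hindlimb region, had 664 in distal dKO and was below the floor in distal RA at 59.8 (at least 3.28; proximal at least 3.11). Hoxb13 (183 and 5.15; at least 1.43) and Hoxc13 (154 and 11.9; at least 1.17) were also above the floor in dKO alone. When the clusters were divided by paralog number after the values were seen, paralogs 8 to 13 were higher in 2 of 2 HoxB and 4 of 4 HoxC genes. The same paralogs were higher in 0 of 3 HoxA and 0 of 6 HoxD genes, where 7.33% of all genes were higher. Hoxb13, Hoxc10 and Hoxc13 were below the floor in distal RA and so could only be higher.

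Several anterior HoxB genes, which respond to RA in the trunk, were under 2-fold apart distally. Hoxb5 had 844 in distal dKO and 867 in distal RA (-0.04), with 226 in distal control. Hoxb4 had 269 and 241 (0.16) with control at 90.8, and Hoxb3 1116 and 1402 (-0.33) with control at 179. Both conditions were therefore above the distal control array for these 3 genes while under 2-fold apart from each other. Hoxb1 was above the floor in dKO alone, at 125 against 50.1 in RA (at least 0.87). Hoxb6 was past 2-fold, at 320.4 in dKO and 154 in RA (1.06), and it was under 2-fold with arrays divided by their medians. In the proximal pair Hoxb4 and Hoxb5 were 2-fold lower in dKO. Hoxb4 had 322 in dKO and 945 in RA (-1.55), and Hoxb5 had 1241 and 3248 (-1.39). Hoxa4 (-1.88) and Hoxa5 (-1.44) were 2-fold lower proximally as well, against at least 0.97 and -0.57 distally.

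The HoxD and HoxA genes of the distal limb were close in the 2 conditions. Hoxd13, a gene of the hand region, had 2030.4 in distal dKO and 2037 in distal RA, both below the 4035 of distal control. In the proximal arrays it had 2521 in dKO and 700.4 in RA (1.85). Hoxd11, a gene of the forearm region, was the 1 Hox gene lower in dKO, at 439 against 933 in RA (-1.09; proximal -0.51). Hoxd9 (-0.17), Hoxd10 (-0.50), Hoxa9 (-0.02), Hoxa10 (-0.47) and Hoxa11 (-0.47) were under 2-fold apart by the probe sets used. A second Hoxa10 probe set, with 85.0 in dKO and 199 in RA, gave -1.23. Hoxd1, at the other end of its cluster, had 189 in dKO and 17 in RA (at least 1.47; proximal at least 1.55).

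**Figure D3:**
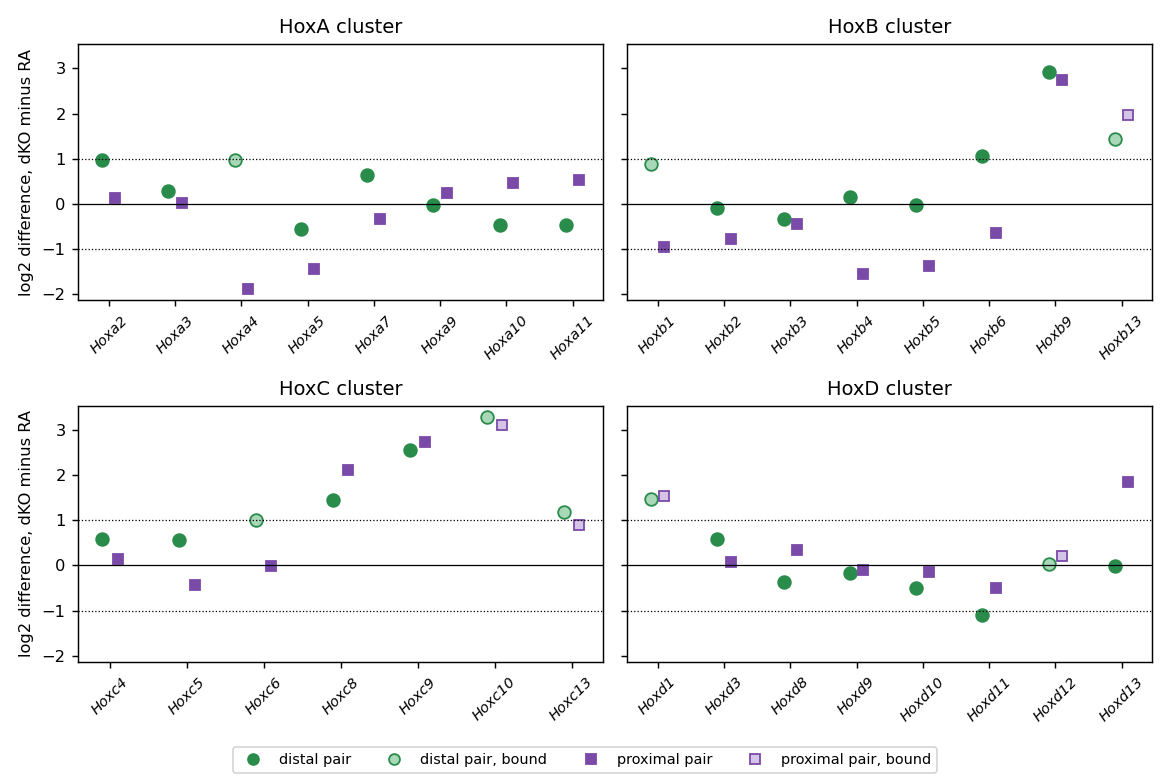
Log2 difference, dKO minus RA, of each measured Hox gene in the distal pair (green circles) and the proximal pair (purple squares), by cluster; pale symbols are bounds and dotted lines mark 2-fold. Hoxb9, Hoxc8, Hoxc9 and Hoxc10 lie above 1 in both pairs, while Hoxb4, Hoxb5, Hoxa4 and Hoxa5 lie below -1 in the proximal pair alone.

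The apical ectodermal ridge differed between the conditions mainly in Fgf4, a growth factor made in the posterior ridge. Of 19 ridge genes 15 were measured distally, with 1 higher and 2 lower in dKO and a median of -0.06. Of all genes 7.33% were higher and 1.55% lower. Fgf4 had 104 in distal dKO, 1431 in distal RA and 2141 in distal control (-3.78), and its 2 other probe sets gave bounds of -3.21 and -3.11. Fgf9, another ridge ligand, had 85.8 in dKO and 206 in RA (-1.26), and it was under 2-fold with the mean over probe sets (-0.55) and with a floor of 200 (-0.04). Fgf8, made along the whole ridge, had 109 and 137 (-0.33), under 2-fold. Dlx5, a ridge homeobox gene, was the 1 higher member, at 238 in dKO and 112 in RA (1.09), and under 2-fold with arrays divided by their medians. Sp8 (1379.9 and 1078; 0.36), Sp6 (0.43), Trp63 (0.17), Wnt3 (-0.09) and Dlx2 (-0.13) were under 2-fold apart.

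Proximally the same list was higher in dKO in 6 of 14 and lower in 0 (median 0.69; 10.34% of all genes were higher). Sp8, a zinc finger factor needed for the ridge, had 840.1 in proximal dKO and 58.7 in proximal RA (at least 3.74), where control had 604. Cd44 (2.66), Dlx2 (1.98), Sp6 (1.75), Dlx5 (at least 1.31) and Rspo2 (1.27) were the others. The proximal RA array held less of the ridge list (summed signal 4406) than the proximal dKO array (7865) or the proximal control array (6803). Surface ectoderm markers summed to 11055 there, against 13297 in proximal dKO. In the distal pair they summed to 20855 in dKO and 15243 in RA. There 3 of 14 were higher in dKO (Krt8, Krt14 and Wnt6), with a median of 0.63, where 7.33% of all genes were higher. Each of these 3 had another probe set under 2-fold by its value (Krt8 0.94, Krt14 at least 0.99 and Wnt6 0.44). The part of ectoderm content in the ridge values was not tested. In bulk tissue, fewer cells of a type and less RNA per cell cannot be told apart.

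Genes of the posterior signalling centre, which maintains Fgf4 through Shh and Grem1, were also lower in the distal dKO array than in the distal RA array in part. Of 11 SHH pathway and posterior genes 3 were lower and 0 higher (median -0.60), where 1.55% of all genes were lower. Of the 9 above both floors 2 were lower, where 1.36% of all such genes were, since Shh was above the floor in RA alone. Shh, the secreted posterior signal, had 57.6 in distal dKO, 433 in distal RA and 1099 in distal control (-2.51, a bound). The dKO array was below its floor and the RA array was between it and control. Gli1, a direct target of SHH signalling, had 172 in dKO and 356 in RA (-1.05), and 114 and 306 proximally (-1.43). Its fellow target Ptch1 had 3029 and 5567 distally (-0.88), under 2-fold. Tbx2, a T-box repressor of the limb margins, had 143 in distal dKO and 456 in distal RA, where control had 139 (-1.67; proximal -2.04). Grem1, the BMP antagonist that links SHH to the ridge, had 368 in dKO and 483 in RA, both below the 1208 of control (-0.39). Hand2 (-0.60) and Tbx3 (-0.86) were under 2-fold apart by the probe sets used, but another Tbx3 probe set gave -1.51 and another Ptch1 probe set -1.53, a bound. Bmp2, a BMP ligand, pointed the other way, with 432 in dKO and 222 in RA (0.96; proximal 1.67).

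FGF response genes, which read out ridge signalling in the mesenchyme, were under 2-fold apart distally in 9 of 9 genes by the probe sets used (median -0.30). Spred2 (-0.94), Il17rd (-0.62) and Spry4 (-0.54) had the widest gaps, and 2 other Spred2 probe sets above both floors were 2-fold lower in dKO (-1.58 and -1.28). Dusp6, a phosphatase induced by FGF, had 2862 in dKO and 3518 in RA (-0.30). Proximally 3 of 9 were higher in dKO, where 10.34% of all genes were: Etv5 (1.39), Spry2 (1.28) and Spry4 (1.08). Among 14 distal limb genes 3 were lower in distal dKO and 0 higher (median 0.02), where 1.55% of all genes were lower. The 3 were Cyp26b1 and Hoxd11, described above, and Sall3, a zinc finger gene of the autopod, with 214 in dKO and 833 in RA (-1.96). A second Sall3 probe set was under 2-fold. Mab21l2 had 247 in dKO and 422 in RA (-0.77), where control had 1808. Lhx9 (0.59), Lhx2 (0.23), Msx1 (0.23) and Sall1 (0.15) were close.

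**Figure D4:**
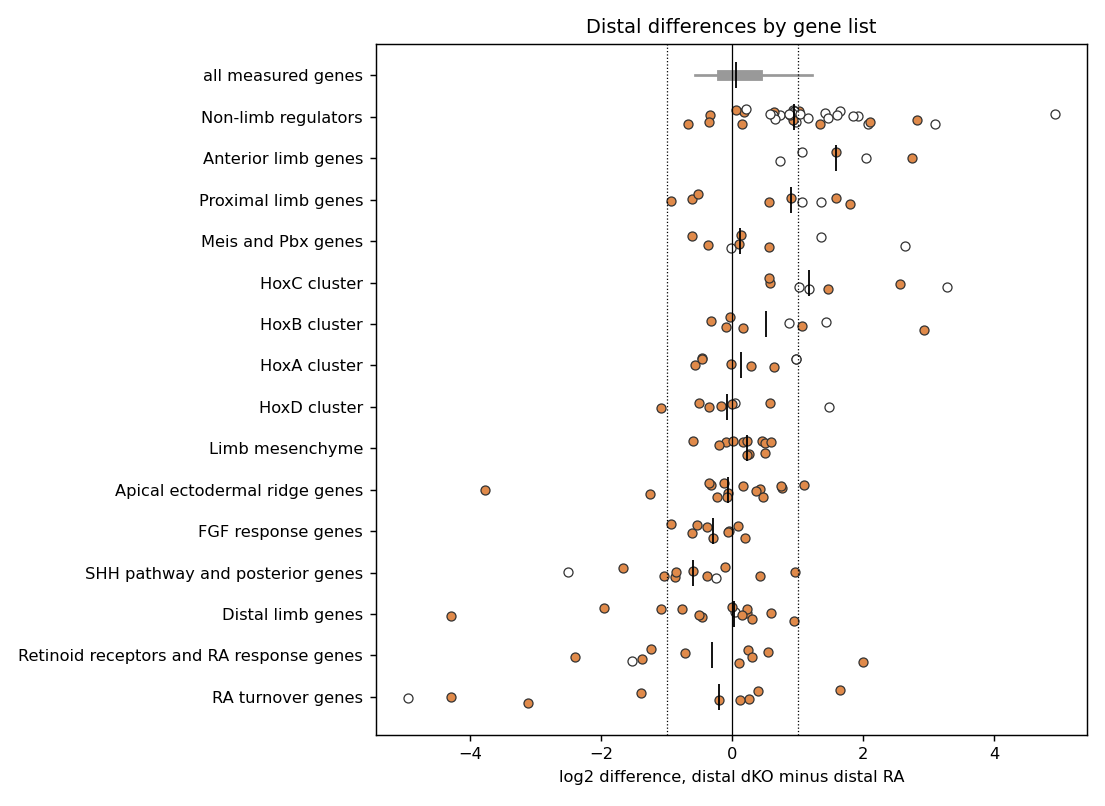
Log2 difference, distal dKO minus distal RA, of the measured members of 15 gene lists; filled points are above both floors, open points are bounds, vertical ticks are medians and dotted lines mark 2-fold. For all measured genes the thick bar spans the middle 50% and the thin line the middle 90%. RA turnover genes reach furthest to the left and non-limb regulators furthest to the right.

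Many regulators of other organs were above the floor in the dKO array alone. Of 84 genes listed for their roles outside limb mesenchyme, many of them known Polycomb targets, 73 were on the array and 39 of these were below both distal floors. Distal control had 11 of them above its floor, among them Zic2 at 698 and Pou4f1 at 318. Of the 34 measured, 15 were higher in dKO and 0 lower (median 0.94), where 7.33% of all genes were higher and 1.55% lower. Proximally 11 of the 15 were higher too, and 4.3% of all genes read in both parts were higher in both. However, 21 of the 34 were above the floor in dKO alone and 0 in RA alone, so these could not have been lower. Of the 13 above both floors, 4 were higher and 0 lower (median 0.63), where 5.39% of all such genes were higher. The 4 were Pax3, Pou4f1, Sox17 and Gata2. Pax3 is also a muscle precursor marker, and those markers summed to 2485 in distal dKO and 867 in distal RA. Markers of neural and Schwann cells summed to 1896 and 814, and the part of such cells in these values was not tested.

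Several of these genes encode neural regulators. Zic1, a zinc finger factor of the dorsal neural tube, had 2074 in distal dKO and 6.26 in distal RA, and 1497 and 8.75 in the proximal pair. It was at 13.1 in distal control, so only the dKO arrays were above the floor (at least 4.93 distally and at least 4.57 proximally). Pou3f3, a POU factor of the brain, had 584 in dKO and 30.7 in RA (at least 3.10; proximal at least 3.25). Pax6, the regulator of eye and brain, had 288 and 23.2 (at least 2.08; proximal at least 2.52). Lhx8 (at least 1.64), Six3 (at least 1.60) and Pou3f2 (at least 1.47) act in the forebrain or neural tube and were bounds as well. Pou4f1, a sensory neuron factor above both floors, had 439.8 in dKO and 103 in RA (2.10), but distal control had 318 and the proximal difference was 0.15.

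Others belong to endoderm, heart, blood or mesoderm. Foxa1, a pioneer factor of endoderm, had 257 in distal dKO and 6.24 in distal RA (at least 1.92; proximal at least 1.06). Gata4 (at least 1.42) and Tbx20 (at least 1.16) act in the heart, Tlx1 (at least 1.03) in the spleen and Isl1 (at least 1.83) in the heart, motor neurons and hindlimb field. A second Isl1 probe set was under 2-fold. Gata2, a blood regulator, had 673 in dKO, 333 in RA and 179 in distal control (1.02), and it was under 2-fold with arrays divided by their medians, as was Tlx1. Sox17, a factor of endoderm and endothelium, had 202 in dKO and 79.9 in RA (1.34; proximal 1.86). With the mean over probe sets, Pax6 (0.54), Six3 (0.64), Pou3f2 (0.59), Gata4 (0.79), Tbx20 (0.49) and Sox17 (0.75) were under 2-fold. With a floor of 200, Pax6 (0.52), Foxa1 (0.36), Isl1 (0.28), Lhx8 (0.09), Six3 (0.05) and Sox17 (0.01) were. Of the hindlimb genes, Isl1, Hoxc10 and Pitx1 (165 in dKO and 5.55 in RA; at least 1.28) were above the floor in dKO alone and could only be higher. The 1 hindlimb gene above both floors was under 2-fold apart.

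The CpG content of these promoters, a feature of many Polycomb targets, was close to that of all measured genes. The Zic1 window at chr9:91365719-91366018 (minus strand, GRCm38.p6) is shown because Zic1 had the widest difference of the list, with each CG in capitals.
Zic1: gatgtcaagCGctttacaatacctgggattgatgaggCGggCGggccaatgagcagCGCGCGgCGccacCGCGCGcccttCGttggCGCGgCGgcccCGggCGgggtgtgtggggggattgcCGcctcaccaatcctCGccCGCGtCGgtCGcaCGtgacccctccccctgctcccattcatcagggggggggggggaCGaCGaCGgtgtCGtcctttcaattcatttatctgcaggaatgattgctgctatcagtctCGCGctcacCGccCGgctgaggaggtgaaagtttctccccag
It held 31 CpG in 300 bases. For the 12 of the 15 higher regulators with a promoter in the table the median was 25, using the richest window of each gene. Across the 9438 measured genes with a promoter the median was 23 (quartiles 15 and 31). Genes higher in dKO had a median of 21 (649 genes) and genes lower in dKO 16 (132 genes).

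Markers of cell types other than limb mesenchyme moved with some of these groups. Muscle precursor markers were higher in distal dKO in 3 of 4 and lower in 0, where 7.33% of all genes were higher. Their summed signal in the proximal pair was 5692 in dKO and 4134 in RA. Pax3, which is also among the non-limb regulators, had 775 in dKO and 110.0 in RA (2.82; proximal 1.09). Lbx1, a marker of migrating muscle precursors, had 456 and 79 distally (2.53) and 2157 and 1824 proximally (0.24). Met, the receptor these cells need to migrate, differed by 1.25 and 0.45. Myf5, Myod1 and Myog were below both distal floors. A second Lbx1 probe set was under 2-fold.

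Neural and Schwann cell markers were higher in distal dKO in 3 of 6 and lower in 0, where 7.33% of all genes were higher. Only 1 of the 3 above both floors was higher. Nefl, a neurofilament subunit, had 762 in dKO and 169.7 in RA (2.17; proximal 2.47), and Nefm (at least 1.36) and Stmn2 (at least 1.29) were below the floor in RA and could only be higher. Sox10, the defining factor of Schwann cell precursors, was below the floor in both distal arrays (21.9 in dKO and 8.74 in RA). Mesothelium markers were higher in 2 of 3, Krt19 by 1.48 and Upk3b by 1.06, with 1427 in summed signal in dKO and 613 in RA. Wt1, the other one measured, had 120 in dKO and 154 in RA (-0.35, and -0.56 proximally). Krt19 differed by -0.21 proximally, and Upk3b by at least 1.23. A second Upk3b probe set was under 2-fold distally. Endothelial markers were higher in 3 of 11 (median 0.15) and erythroid markers in 1 of 8 (0.21), beside the same 7.33%. Macrophage markers were lower by their values in 6 of 6, of which 2 were above both floors, but 2-fold in 0 (median -0.55; summed signal 558 in dKO and 991 in RA). Somite and body wall markers had 2 of 7 higher and 1 lower distally, and 2 higher and 4 lower proximally. Their summed signal was 3791 in proximal dKO and 7495 in proximal RA, while the distal sums were 2849 in dKO and 2931 in RA. The part of these cell types in the differences was not tested.

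Polycomb subunits themselves were mostly level. Of 25 measured PRC1 and PRC2 genes 2 were higher in distal dKO and 0 lower (median -0.11), where 7.33% of all genes were higher. Ring1, which encodes RING1A, had 578 in distal dKO and 245 in distal RA (1.24), and 402 and 419.8 proximally. Of these 2 distal arrays, the one labelled Ring1A-/- was thus the higher. The control arrays read 968 distally and 624 proximally, above both dKO arrays. Rnf2, which encodes RING1B, had 1887 in dKO and 2085 in RA (-0.14). Where these probe sets lie in relation to the removed exons is not stated, so these signals do not test the deletion. Cbx8, a PRC1 chromobox subunit, had 208 and 76.8 (1.44), and Bmi1, a PRC1 ring finger subunit, 3574 and 1799 (0.99; proximal 1.26). The Cdkn and p53 list had 2 of 12 higher, where 7.33% of all genes were. They were Phlda3 (1.03) and Sesn2 (1.02), both just past 2-fold, and a second Sesn2 probe set gave -0.08. Cdkn2a, the classical Polycomb target of proliferating cells, had 114 in dKO and 16.5 in RA (at least 0.74). Cartilage genes had 3 of 9 higher and 0 lower, beside the same 7.33%. The 3 were Sox6 (1052 in dKO and 212 in RA, 2.31), Acan (at least 2.26) and Runx3 (at least 1.63). Acan and Runx3 were below the floor in RA and could only be higher. Of the 7 cartilage genes above both floors 1 was higher (median 0.30), where 5.39% of all such genes were. Sox9, the master factor of cartilage, had 635 and 671 (-0.08).

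Outside the lists, the genes furthest apart among those above both distal floors and 2-fold the same way proximally included metabolic, secreted and neuronal proteins. Highest in dKO was Fabp3, a fatty acid binding protein of heart and muscle, with 1699 in distal dKO and 106 in distal RA (4.01; proximal 3.27). Htra1, a secreted serine protease, had 1801 and 128 (3.82; proximal 2.55). Cxcl14, a chemokine, had 1986 and 244 (3.02; proximal 1.99). Both dKO arrays were above both RA arrays for each of them. Also among the 15 highest were Gm266 (3.05), Ripply3 (3.04), Dab1 (2.99), Tex15 (2.96), Tub (2.92), Gcnt1 (2.84), Celf4 (2.79), Enho (2.76), Tcfl5 (2.73), the heat shock gene Hspa1b (2.72), and Hoxb9 and Pax3, given above. Tex15 is a gene of the germ line, and Dab1 and Celf4 are used in neurons.

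The same rule named genes lower in dKO. Csn3, a casein of milk, had 79.5 in distal dKO and 2366 in distal RA (-4.90; proximal -2.49). The serum amyloid genes Saa1 (160.1 in dKO and 1374 in RA; -3.10) and Saa2 (-3.14), which encode acute phase proteins, were also lower in dKO in the proximal pair (-3.16, and -3.09, a bound). Their sequences are similar, so the probe sets may not tell them apart. Foxc2, a forkhead factor of somites and vessels, had 188 in dKO, 1412 in RA and 93.7 in distal control (-2.91; proximal -1.13). Also named were the X-linked gene Mid1 (-3.16), Arhgap9 (-2.73), Bcl6 (-2.53), Cntnap2 (-2.51), Arg1 (-2.46), D2hgdh (-2.39), Slc15a2 (-2.38) and Cdkal1 (-2.29), beside Cyp26b1, Dhrs3 and Rarb. With the mean over probe sets Mid1 (-0.95), Cntnap2 (-0.95) and Slc15a2 (-0.69) were under 2-fold.

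Among genes at the floor on 1 of the distal arrays, the brightest in dKO after Xist were Prl8a2, a prolactin-family gene of the decidua, with 2129 in distal dKO and 37.1 in distal RA, and then Zic1. Prl8a2 had 537 in distal control and 131 in proximal dKO. The neuronal genes Rab6b (804 in dKO and 61.3 in RA), Ina (786 and 16.6) and Kcnd3 (735 and 16) followed, with Foxl2os (729 and 21.5) and Hoxc10. Brightest in RA, with dKO at the floor, were Eif2s3y, Cyp26a1, Tmem87a (42.3 in dKO and 1217 in RA), D630033O11Rik (30.6 and 472), Zfp874a (7.19 and 403), Rsl1 (44.5 and 372), Chrna3 (9.77 and 367) and Rab37 (38.2 and 320.3). With a floor of 200, Rsl1 (-0.89), Chrna3 (-0.88) and Rab37 (-0.68) were under 2-fold. With the mean over probe sets, Chrna3 (-0.65), Rab37 (-0.96) and Kcnd3 (0.98) were.

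**Figure D5:**
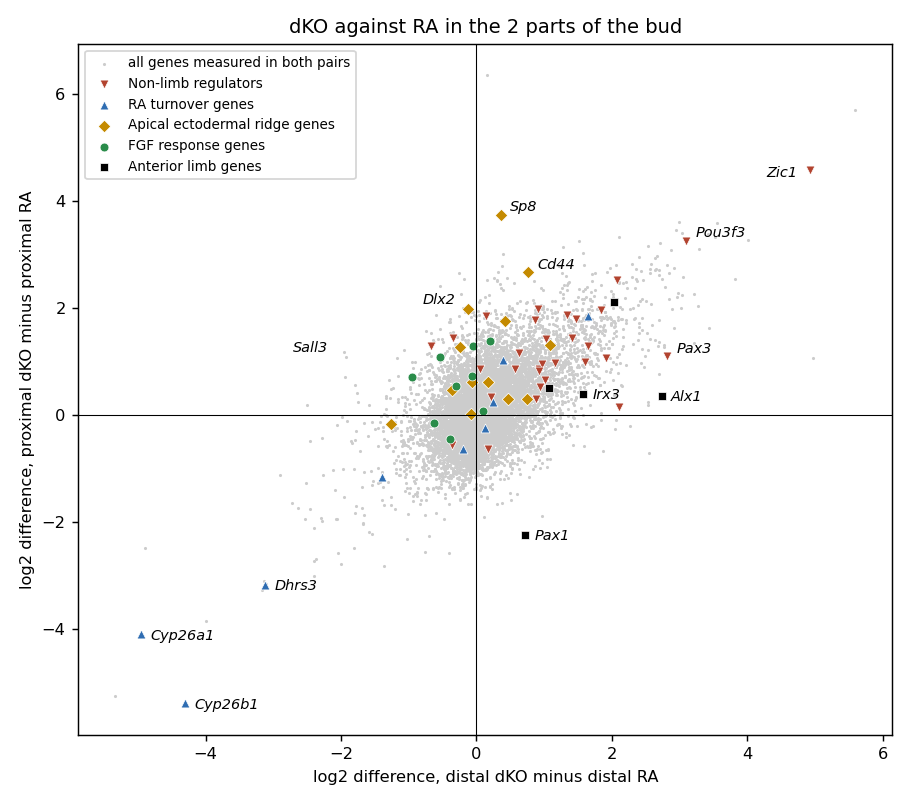
Log2 difference, dKO minus RA, of each gene in the distal pair (x axis) and the proximal pair (y axis), with 5 gene lists in colour. Cyp26a1, Cyp26b1, Dhrs3, Zic1 and Pou3f3 are far apart in both pairs, Irx3 and Alx1 are apart in the distal pair alone, and Sp8 and Cd44 in the proximal pair alone.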

How the data were processed

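RNA from limb bud parts was hybridised to 6 Affymetrix arrays of 1 colour, 1 array for each group. The authors deposited MAS5 signal intensity on a linear scale, per the submitters' processing notes (version not given in the sources used here). The trimmed mean signal, leaving out 2% at each end, was 498 to 499 on every array. Of 45101 probe sets, 34958 carried 1 gene symbol, 932 several (not named here) and 9211 were not listed by the annotation. For 18193 genes, the probe set brightest on average in log2 over all arrays was kept. Signals were floored at the array's median over probe sets other than 64 controls before log2. A gene was measured when 1 or both arrays exceeded the floor, and called at 2-fold. With 1 array per group no test was run. The calculation was tested on simulated data. Python 3.11.15 and pandas 2.3.3 were used. Alternatives were division by the array median, quantile normalization, an offset of 32 in place of the floor, other floors, the mean over probe sets, another choice of probe set and a 3-fold threshold. Named genes were members of the gene lists. Named too were the 15 highest and 15 lowest genes above both distal floors that were 2-fold the same way proximally, and the 8 brightest such bounds each way. Members and lists were chosen with earlier results of these data known. Promoters are from RefSeq (GRCm38.p6).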

Additional observations from a re-analysis of the deposited data

Results flagged for a closer look

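Of 172 genes 2-fold lower in dKO distally and read in both parts, 4 were 2-fold higher in dKO proximally, each on 1 array per group. In the proximal pair 10.34% of all genes were higher, and 0 of 846 distal higher genes were 2-fold lower there. The difference between the parts was not tested. Sall3, a list member, had 214 in distal dKO and 833 in distal RA, and 142 in proximal dKO and 44.8 in proximal RA. Its differences were -1.96 distally and at least 1.17 proximally. The other 3 were chosen after their values were seen. Rcsd1 differed by -1.93 distally and 1.07 proximally, with 460.3 in dKO and 1751 in RA distally and 481 and 228 proximally. Dhtkd1 differed by -1.17 and 1.07, with 182 and 409 distally and 242 and 115 proximally. Snhg14 differed by -1.07 and 1.22, with 257 and 541 distally and 268 and 115 proximally. A second Snhg14 probe set pointed the other way distally, with 168 in dKO and 49.8 in RA (at least 1.30), so its opposite direction in the parts depends on the probe set. A second Sall3 probe set gave -0.77 distally, a bound. By the probe sets used, in all 4 the distal RA array was the highest of these 4 arrays and the proximal RA array the lowest. The order within each pair follows from how the genes were chosen.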

How the results depend on the processing

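No paired analysis was possible because each group has 1 array, and for the same reason no array was left out. The RA turnover genes lower in dKO stayed at 4 in the settings that keep 2-fold and were 3 at 3-fold. Gene values were followed for 136 named genes. These were the highest, lowest and brightest genes and the measured Meis and Pbx, Hox, RA turnover, ridge and non-limb members. Of these, 74 were 2-fold apart, and none of the 74 turned its direction in the 7 settings that give gene values. In at least 1 setting 23 of the 74 were under 2-fold. Genes named only from other lists, or only for opposite directions in the 2 parts, were not followed. Dividing arrays by their medians gave 803 genes higher and 679 lower proximally, and 0 ridge genes higher distally. With an offset of 32 and no floor, 0 ridge genes and 24 non-limb regulators were higher distally. A floor of 200, which by construction hides dim genes, gave 367 genes higher distally and 640 proximally. Among lists it left 1 Meis or Pbx gene, 4 Hox genes, 0 RA turnover genes, 0 ridge genes and 5 non-limb regulators higher, and 1 ridge gene lower. A floor at the 25th percentile gave 1698 higher and 362 lower distally and 1939 higher and 733 lower proximally. It gave 2 Hox genes lower, 2 RA turnover genes higher, and 35 non-limb regulators higher with 1 lower. The mean over probe sets gave 546 higher and 116 lower distally, 673 higher and 194 lower proximally, 1 ridge gene lower and 9 non-limb regulators higher. At 3-fold there were 304 higher and 63 lower distally, and 405 higher and 59 lower proximally. The lists then had 1 Meis or Pbx gene, 3 Hox genes, 0 ridge genes and 9 non-limb regulators higher, and 0 Hox genes and 1 ridge gene lower. Other than for the floors and the threshold, the cause was not tested. Signals under the floor carry no size here.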
